A study of Mus musculus with 15 samples.

Results

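Mlh3, Msh4, Msh5, Rnf212, Tex11, Hfm1 and Cntd1 are 7 mouse genes that act on meiotic recombination intermediates and turn them into crossovers. They were chosen by symbol, and each matched 1 of the 36118 Ensembl gene rows of the deposited table. All 7 were above 0 in all 15 libraries and passed the minimum mean of 10 normalised counts.

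During meiotic prophase, homologous chromosomes exchange strands, and a subset of the joint molecules is stabilised and later cut so that each pair of homologues keeps at least one crossover. MSH4 and MSH5 form a clamp on the joint molecules, HFM1 is a DNA helicase (Mer3 in yeast) and TEX11 is the mammalian counterpart of yeast Zip4. RNF212 is a RING-finger protein that acts in SUMO modification and stabilises selected sites, while CNTD1, a cyclin-like protein, is needed for sites to mature. MLH3 has the nuclease activity that acts at the final crossover sites. In the testis these steps take place in spermatocytes.

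RNA was sequenced from whole testes of C57/BL6 mice that received MTX, HMS-I1, AA or TSA, or belonged to the Control group, with 3 libraries per group. The labels do not spell out the treatment names and give no dose, duration or age. The HMS-I1 group was taken from the sample titles, because another label numbers its 3 libraries as if they were separate agents. Whether each library is from its own animal is not stated, so a p-value here covers the spread between libraries and that spread may be technical. In bulk tissue, fewer spermatocytes and less RNA per spermatocyte cannot be told apart.

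The libraries fell into 2 sets that cut across the groups, divided here at a mitochondrial share of 2%. The first set holds replicate 1 of MTX, HMS-I1, AA and TSA and replicates 1 and 2 of Control, 6 libraries in all. Its mitochondrially encoded genes made up 1.08% to 1.40% of the signal, against 3.54% to 13.7% in the 9 libraries of the second set, and its 60 histone genes had a mean log2 value of 7.79 to 8.82, against 2.95 to 3.86. The most frequent value above 0 in a library, which many genes share, was 1.98 to 2.62 in the first 6 libraries, against 0.453 to 0.917 in the 9 of the second set, in normalised counts. The depth of each library is unknown, since the values are scaled, and the summed signal was 2.75e+07 to 4.06e+07 per library. Markers of the testis cell types were present in every library. The summed level of 18 spermatocyte markers, all 18 above 0 in each library, was 103644 to 252548 normalised counts in MTX, 94051 to 165575 in HMS-I1, 119844 to 140052 in AA and 96035 to 144084 in TSA, against 129904 to 180740 in Control.

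The members differ in base composition. The replicate differences described further on for MTX, HMS-I1 and TSA, but not for AA, followed that of their transcripts apart from Rnf212. Stretches of the genes at its extremes are therefore shown here. The longest coding transcript of Hfm1 had a GC content of 39.0% and that of Tex11 39.7%, while Mlh3 (44.1%), Cntd1 (44.5%), Msh4 (45.1%) and Rnf212 (49.2%) lay between them and Msh5 (55.6%). The median over 17841 tested genes was 49.4%. Below are the first 150 coding bases of Hfm1 (chromosome 5), Tex11 (chromosome X) and Msh5 (chromosome 17), 5′ to 3′, with the start codon in capitals, from the GENCODE transcripts of GRCm38. Their GC contents were 38.7%, 35.3% and 68.7% in that order. Such a stretch does not stand for the whole transcript: it had 63.3% in Msh4, 56.7% in Cntd1, 54.7% in Rnf212 and 44% in Mlh3.
Hfm1: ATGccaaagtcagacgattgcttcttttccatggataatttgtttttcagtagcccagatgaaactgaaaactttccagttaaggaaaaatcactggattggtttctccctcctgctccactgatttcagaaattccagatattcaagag
Tex11: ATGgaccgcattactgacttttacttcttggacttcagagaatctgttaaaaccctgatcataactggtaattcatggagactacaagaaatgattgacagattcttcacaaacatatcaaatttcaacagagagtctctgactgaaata
Msh5: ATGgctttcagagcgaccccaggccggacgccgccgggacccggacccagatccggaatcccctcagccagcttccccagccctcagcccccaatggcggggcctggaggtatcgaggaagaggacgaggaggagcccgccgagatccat

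Promoter windows of 250 bases before to 50 bases after the start were matched for 6 of the 7 genes, and Tex11 had no entry. The windows of Rnf212 and Cntd1 are shown because the values of these 2 genes differed least from each other across the libraries, by a mean of 0.14 on the centred log2 scale. Both are RefSeq sequences of GRCm38.p6, a build earlier than the one named for the files, and capitals mark the letters CACGTG (an E-box), searched on both strands. The Rnf212 window lies at chr5:108774978-108775277 on the minus strand and the Cntd1 window at chr11:101278953-101279252 on the plus strand.
Rnf212: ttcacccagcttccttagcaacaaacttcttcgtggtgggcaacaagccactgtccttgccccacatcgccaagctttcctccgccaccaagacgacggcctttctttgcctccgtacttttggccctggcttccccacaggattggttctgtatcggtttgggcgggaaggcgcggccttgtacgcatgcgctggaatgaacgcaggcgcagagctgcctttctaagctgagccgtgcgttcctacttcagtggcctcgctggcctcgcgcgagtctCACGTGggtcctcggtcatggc
Cntd1: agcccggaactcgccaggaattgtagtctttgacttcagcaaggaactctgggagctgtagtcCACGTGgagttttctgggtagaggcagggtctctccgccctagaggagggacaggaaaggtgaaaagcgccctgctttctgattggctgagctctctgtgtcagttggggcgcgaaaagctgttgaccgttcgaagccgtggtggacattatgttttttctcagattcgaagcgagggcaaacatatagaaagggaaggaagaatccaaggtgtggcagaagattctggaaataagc
CACGTG occurred in 2 of the 6 windows, those of Rnf212 and Cntd1, and in 7.24% of 27018 gene windows of the same length. AACNGNC, a motif of the MYB family to which the spermatocyte factor A-MYB belongs, occurred on either strand in 5 of the 6 (Mlh3, Msh4, Msh5, Hfm1 and Cntd1) and in 32.8% of all windows. TCCCGC, an E2F motif, occurred in 3 of the 6 and in 5409 of all, and CCAAT in 4 of the 6 and in 37.9%. In the Msh5 window 1 pair of matches to different motifs overlapped, and in the other 5 windows none did. A match describes letters only.

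Per kilobase of the longest coding transcript, Cntd1 had the highest level, with a mean of 2067 normalised counts per kb over the 15 libraries (range 1641 to 2907). Hfm1 followed with 623 per kb (286 to 1157), then Mlh3 with 324.4 (193 to 409), Tex11 with 324.0 (176 to 518), Msh4 with 221 (143 to 331), Rnf212 with 141 (103 to 205) and Msh5 with 96.0 (64.6 to 179). Only the step between Cntd1 and Hfm1 separated neighbours in this order, since the ranges of all other neighbours overlapped. The annotated Rnf212 transcript of 924 bases has no untranslated ends, which raises its value per kb. The Cntd1 level has its own limit. Of its coding transcript of 2335 bases, 1394 (59.7%) also lie in exons of Becn1, an autophagy gene on the opposite strand, and no source used here states whether the counting used strand. Whether reads from Cntd1 and Becn1 were told apart over that stretch is therefore unknown. The deposited Becn1 value was 2025 to 2938 normalised counts in MTX, 2381 to 2909 in HMS-I1, 3028 to 3654 in AA and 3045 to 3219 in TSA, against 2739 to 4254 in Control. The library with the highest Cntd1 value (MTX replicate 2, 6788) had 2377 for Becn1, and the one with the highest Becn1 value (Control replicate 1, 4254) had 3985 for Cntd1.

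No crossover gene passed the test against Control under any of the 4 treatments (limma, adjusted p under 0.05, 28 comparisons). The log2 differences ran between -0.41 (Msh4 in TSA) and 0.33 (Tex11 in AA). None of the 28 had an unadjusted p under 0.05, and in all 28 the 3 treated libraries overlapped the 3 of Control. Over all 17896 genes limma called 0 (0.0%) in each comparison and in the test of any difference among the 5 groups. Without TSA replicate 1, limma called 992 genes in TSA and 246 over the 5 groups, and 0 of the 7 crossover genes. That fit leaves TSA with libraries of the second set only, while Control replicates 1 and 2 are in the first. The part of the library set in those calls was not tested. An unadjusted p under 0.05 was found for 98 genes in MTX (0.548%), 73 in HMS-I1 (0.408%), 143 in AA (0.799%), 1027 in TSA (5.74%) and 230 in the test over 5 groups (1.29%). With library quality weights in the fit, limma called 2 of the 7 genes in AA (Mlh3 at -0.52, adjusted p = 0.0255, and Tex11 at 0.68, adjusted p = 0.0271) beside 37.1% of all genes, and 0 of the 7 in TSA and over the 5 groups beside 23.7% and 31.5% of all genes. That fit gave AA replicate 2 a weight of 38.8, against 0.230 to 2.92 for the other 14 libraries. Of all genes, 1.32% lay fully above Control in MTX and 1.15% fully below, with 1.35% and 1.35% in HMS-I1, 2.81% and 2.23% in AA, and 2.36% and 2.18% in TSA.

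**Figure D1:**
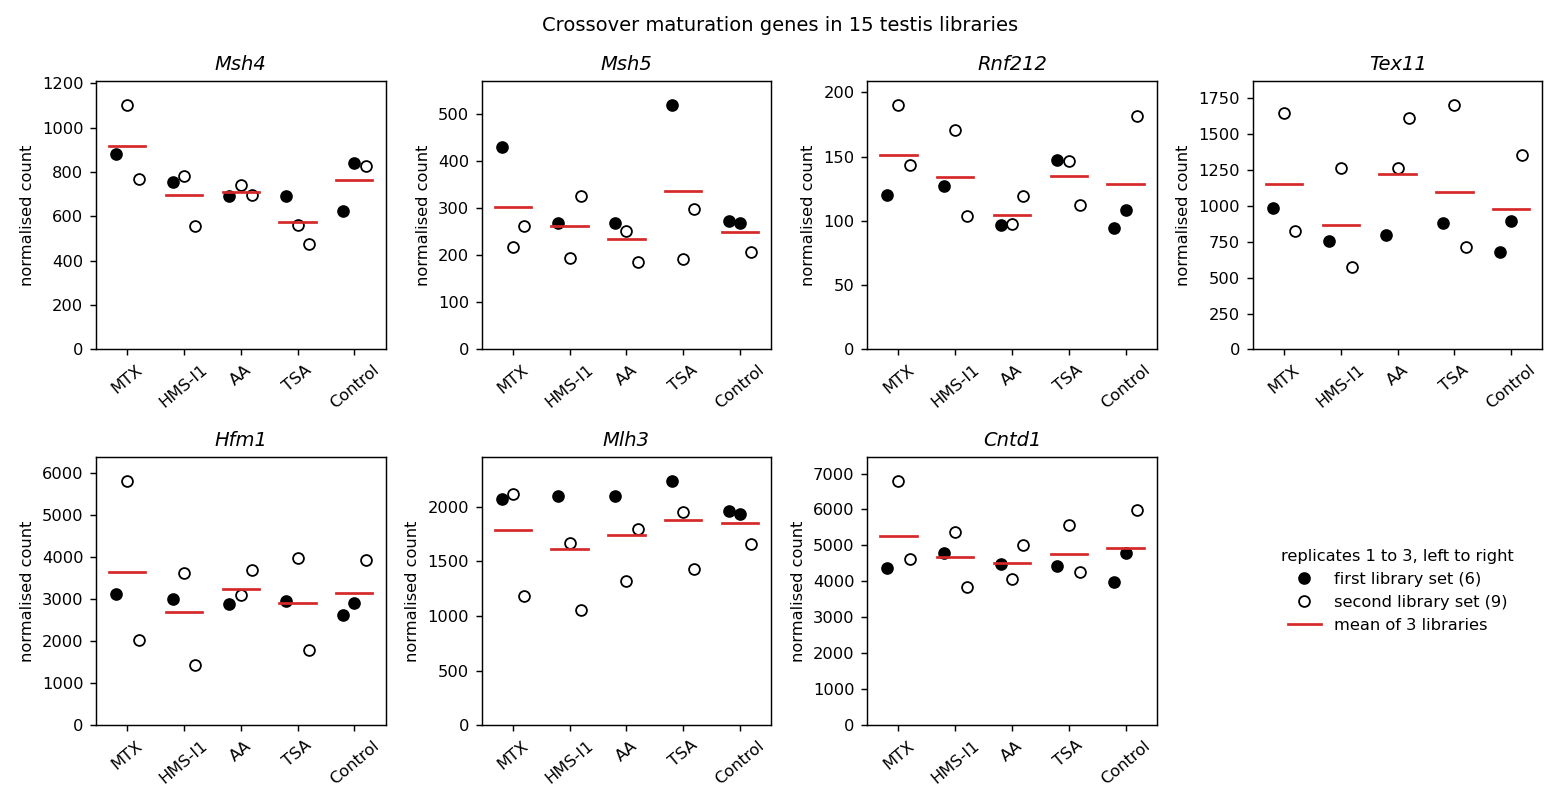
Normalised counts of the 7 crossover genes (vertical axes from 0) in each of 15 testis libraries, by group, with replicates 1 to 3 from left to right. Filled points are the first library set, open points the second, and the red line is the mean of 3 libraries; each treated group overlaps Control for each gene.

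Msh4 encodes the partner of MSH5 in the clamp on joint molecules. It stood at 881, 1101 and 771 normalised counts in MTX replicates 1 to 3, at 753, 782 and 557 in HMS-I1, at 691, 740 and 697 in AA and at 693, 563 and 475 in TSA, against 627, 843 and 828 in Control. TSA replicate 3 was the lowest and MTX replicate 2 the highest of the 15 libraries, and each treatment overlapped Control. TSA averaged 577 ± 109 and Control 766 ± 121 (SD, n = 3 each), a log2 difference of -0.41 (SE 0.23, limma adjusted p = 0.886). In MTX the mean was 917 ± 168, a log2 difference of 0.26 (SE 0.23, limma adjusted p = 1). The TSA difference was -0.07 within the first library set (1 library against 2) and -0.68 within the second (2 against 1), and with the library set as a term it was -0.39 (SE 0.21). Of the 7 genes, Msh4 had the smallest p in the test over the 5 groups (0.123, limma adjusted p = 1.00). The summed level of 10 spermatid markers was 162275 to 763477 normalised counts in TSA, against 391165 to 816495 in Control, with a median log2 difference of -1.36 and 0 of 10 higher. The 18 spermatocyte markers had a median of -0.21, with 5 of 18 higher. Markers of most other cells lay higher in TSA, with 10 of 10 for spermatogonia (median 0.48), 9 of 9 for Sertoli cells (0.48), 6 of 6 for Leydig cells (0.55) and 4 of 4 for myoid cells (0.36). Macrophage markers lay higher in 3 of 5 and endothelial markers in 2 of 3, and 0 of all these markers passed the threshold. Of the spermatogonial, Sertoli, Leydig and myoid markers, 9, 9, 5 and 4 lay higher in AA. In HMS-I1 these counts were 9, 7, 5 and 3, and in MTX 6, 5, 3 and 3. Spermatid markers lay higher in 2 of 10 in AA and MTX and in 0 of 10 in HMS-I1. The marker sums also moved with the library set: the spermatogonial markers summed to 3117 to 3444 normalised counts in the first set, against 4876 to 7433 in the second, and the spermatid markers to 593653 to 869348 against 162275 to 391165. TSA has 1 of its 3 libraries in the first set and Control 2 of 3. The part of the markers and of the library set in the Msh4 values was not tested.

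Msh5, the partner of Msh4 in the clamp, had 429, 217 and 263 normalised counts in MTX, 269, 193 and 325 in HMS-I1, 268, 251 and 186 in AA and 517, 192 and 297 in TSA, against 272, 268 and 207 in Control. Replicate 1 of TSA and replicate 1 of MTX were the highest of all 15 libraries, while the other 4 libraries of the first set lay close together at 268 to 272. The log2 difference in TSA was 0.32 (SE 0.37, limma adjusted p = 0.886), with values of 0.93 in the first set alone and 0.21 in the second alone. In MTX it was 0.23 (SE 0.37, limma adjusted p = 1), with 0.67 and 0.21. The mean absolute difference between the centred log2 values of Msh4 and Msh5 over the 15 libraries was 0.42. This was the smallest of the 6 pairs that hold Msh5, which ran up to 0.72 with Tex11, and Msh4 was closer to Cntd1, at 0.18.

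Rnf212, the least abundant of the 7 before division by length, had 120, 190 and 143 normalised counts in MTX, 127, 171 and 103 in HMS-I1, 96.9, 97.7 and 120 in AA and 147, 147 and 112 in TSA, against 94.8, 108 and 182 in Control. Control replicate 3 lay well above the other 2 controls. AA averaged 105 ± 13.0 and Control 128 ± 46.7 (SD, n = 3 each), a log2 difference of -0.24 (SE 0.31, limma adjusted p = 1.00). In MTX the difference was 0.27 (SE 0.31, limma adjusted p = 1), with 0.079 when Control replicate 1 was left out and 0.54 when Control replicate 3 was.

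Tex11, an X-linked gene, had 982, 1643 and 827 normalised counts in MTX, 756, 1263 and 575 in HMS-I1, 797, 1260 and 1613 in AA and 879, 1698 and 711 in TSA, against 678, 897 and 1353 in Control. High and low libraries occurred in every group. The AA difference was 0.33 (SE 0.43, limma adjusted p = 1.00), with values of 0.03 in the first set alone and 0.07 in the second alone. Hfm1, the helicase, had 3114, 5806 and 2036 normalised counts in MTX, 3007, 3612 and 1437 in HMS-I1, 2888, 3101 and 3702 in AA and 2956, 3969 and 1793 in TSA, against 2622, 2895 and 3935 in Control. Its largest log2 difference was -0.31 in HMS-I1 (SE 0.42, limma adjusted p = 1), with values of 0.13 in the first set alone and -0.79 in the second alone. Hfm1 had the widest range of the 7, 4.04-fold from the lowest to the highest library, and Tex11 the next with 2.95-fold.

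Mlh3, which encodes a nuclease of late crossover sites, had 2072, 2115 and 1183 normalised counts in MTX, 2103, 1672 and 1055 in HMS-I1, 2098, 1319 and 1797 in AA and 2234, 1955 and 1433 in TSA, against 1957, 1935 and 1655 in Control. MTX averaged 1790 ± 527 and Control 1849 ± 169 (SD, n = 3 each), and Control had the smallest SD of the 5 groups. The largest of its 4 log2 differences was -0.25 in HMS-I1 (SE 0.31, limma adjusted p = 1). Cntd1 had 4379, 6788 and 4619 normalised counts in MTX, 4798, 5381 and 3831 in HMS-I1, 4488, 4078 and 5002 in AA and 4428, 5571 and 4270 in TSA, against 3985, 4791 and 5976 in Control. Its range was the narrowest of the 7, at 1.77-fold, and its 4 log2 differences lay between -0.11 in AA and 0.09 in MTX, each with an SE of 0.23.

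**Figure D2:**
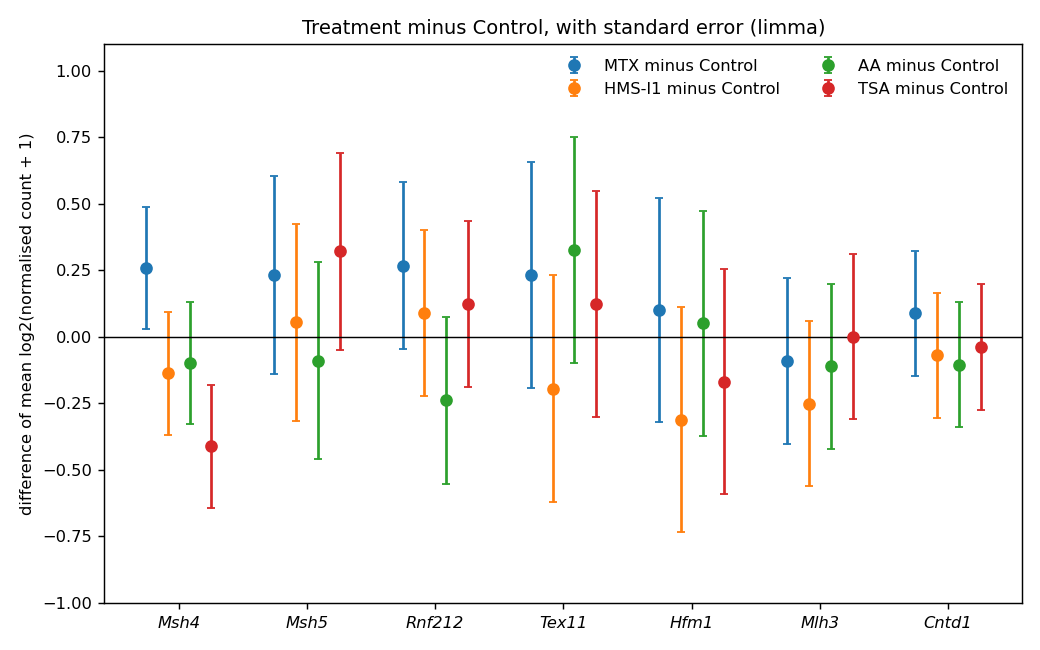
Difference of the group means of log2(normalised count + 1), treatment minus Control, for the 7 crossover genes, as points with the standard error from the limma fit (n = 3 libraries per group). Standard errors range from 0.23 for Msh4 and Cntd1 to 0.43 for Tex11, and 0 of the 28 differences passed the threshold.

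Counted by direction, 6 of the 7 genes lay higher in MTX than in Control, with a median log2 difference of 0.23, beside a median of -0.01 and 47.9% higher over all 17896 genes. In HMS-I1, 2 of 7 lay higher (median -0.14, beside -0.02 over all genes), in AA 2 of 7 (median -0.10, beside -0.02) and in TSA 3 of 7 (median -0.00019, beside 0.01). The 4 comparisons share the Control libraries. Within the first set alone, all 7 genes lay higher in MTX replicate 1 than in the mean of Control replicates 1 and 2 (median 0.24, beside 0 over all genes), 5 of 7 in HMS-I1, 4 of 7 in AA and 6 of 7 in TSA. Within the second set, against the single Control replicate 3, 2 of 7 lay higher in MTX (median -0.09), 1 of 7 in HMS-I1 (median -0.40), 2 of 7 in AA (median -0.20) and 2 of 7 in TSA (median -0.30). The median thus had opposite signs in the 2 sets in all 4 treatments. These are not 4 separate observations, because within each set the treatments share the same Control libraries. The median of the 7 centred log2 values was 0.33 in Control replicate 3, and -0.20 and 0.0072 in Control replicates 1 and 2. Over all genes, the medians ran from -0.0057 in AA to 0.01 in HMS-I1 within the first set. Within the second set they ran from -0.02 in MTX to 0.01 in TSA.

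Differences between libraries cut across the groups. In replicate 3 of MTX, HMS-I1 and TSA, Hfm1 stood at 1437 to 2036 normalised counts, against 3101 to 5806 in the other 6 libraries of the second set, and 2622 to 3114 in the first set. Tex11 stood at 575 to 827 in those 3 libraries, 1260 to 1698 in the other 6 and 678 to 982 in the first set. Msh5 went the other way within the second set, with 263 to 325 in those 3 libraries and 186 to 251 in the other 6. Mlh3 had 1055 to 1433 in those 3, and 1319 to 2115 in the other 6. These libraries were singled out after their values were seen, so no test is given. The same 3 libraries had the 3 lowest summed levels of the 18 spermatocyte markers, 94051 to 103644 normalised counts, against 119844 to 252548 in the other 6 libraries of the second set and 129904 to 145981 in the first set. Such a sum is weighted towards the most abundant markers. For the median marker of the 18, replicate 2 minus replicate 3, averaged over MTX, HMS-I1 and TSA, was only -0.02 on the log2 scale. The part of the spermatocyte markers in the values of the crossover genes was not tested.

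**Figure D3:**
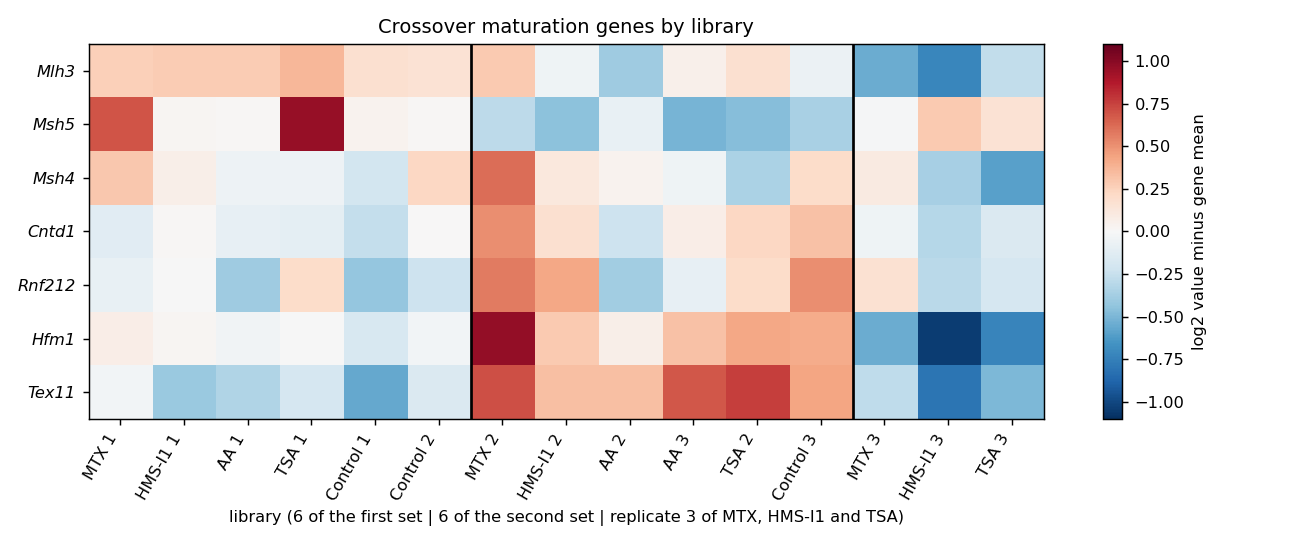
Log2(normalised count + 1) of each crossover gene minus its mean over 15 libraries, as colour, for the first library set, 6 libraries of the second set and replicate 3 of MTX, HMS-I1 and TSA, divided by black lines. Hfm1 and Tex11 are low in the last 3 libraries and high in the 6 before them, where Msh5 is low.

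Between replicates 2 and 3 of MTX, HMS-I1 and TSA, the crossover genes with the lowest GC content differed most. Averaged over MTX, HMS-I1 and TSA, replicate 2 minus replicate 3 was 1.33 on the log2 scale for Hfm1, 1.13 for Tex11, 0.65 for Mlh3, 0.48 for Cntd1, 0.42 for Msh4, 0.50 for Rnf212 and -0.55 for Msh5, which apart from Rnf212 is the order of their GC content. Each of the 7 had the same sign in all 3 treatments, and Hfm1 was 2.85-fold higher in replicate 2 than in replicate 3 in MTX, 2.51-fold in HMS-I1 and 2.21-fold in TSA. In AA the order was different: Hfm1 differed by -0.26, Tex11 by -0.36 and Mlh3 by -0.45, and Msh5 by 0.42. The same trend ran through all genes. In 5 equal parts by GC content, the median difference between replicates 2 and 3 was 0.67 in the part with the lowest GC content (31.9% to 43.6%), which holds Hfm1 and Tex11, then 0.23, -0.06 and -0.32, and -0.50 in the part with the highest (55.5% to 78.3%), which holds Msh5. The crossover genes lay between the 46.0th and the 83.4th percentile of their own part. After the median of each of 20 GC bins was removed from each library, the differences were 0.17 for Hfm1, 0.38 for Tex11, 0.28 for Mlh3, 0.11 for Cntd1, 0.16 for Msh4, 0.51 for Rnf212 and -0.11 for Msh5. Each of them but Rnf212 was smaller in size than before the correction. The bin medians came from these same libraries, so smaller differences follow in part from how the correction is made.

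**Figure D4:**
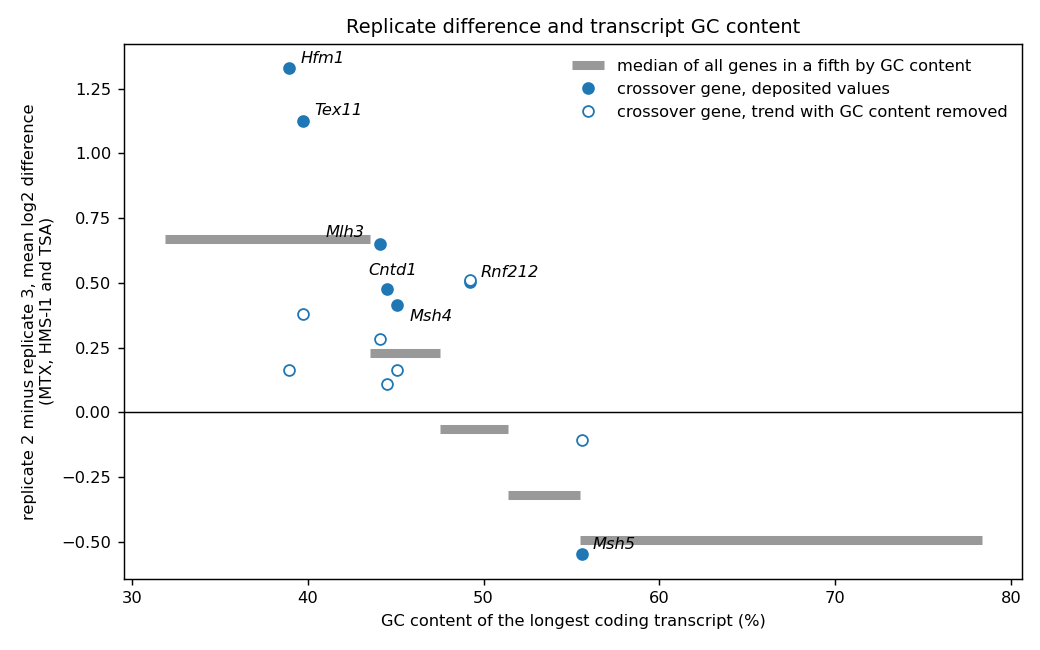
Mean log2 difference of replicate 2 minus replicate 3 in MTX, HMS-I1 and TSA (vertical axis) by GC content of the longest coding transcript in percent (horizontal axis). Filled points are the 7 crossover genes as deposited, open points the same with the GC trend removed, and grey bars the medians of all genes in 5 equal parts, which run from 0.67 to -0.50.

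With the same correction in the fit of the groups, 0 of the 7 genes passed in any comparison, but the sign of 6 of the 28 differences changed. Hfm1 in TSA was at 0.39 (SE 0.25) in place of -0.17 (SE 0.42), and Tex11 in TSA at 0.43 (SE 0.35) in place of 0.12 (SE 0.43). Msh4 in TSA stayed at -0.36 (SE 0.18). The correction was chosen after the data were seen.

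The first set against the second gave a different order again. The difference of the mean log2 values, first minus second, was 0.48 for Msh5, 0.42 for Mlh3, 0.08 for Msh4, -0.04 for Hfm1, -0.16 for Cntd1, -0.26 for Rnf212 and -0.47 for Tex11. Over all genes the quartiles of these differences were -0.53 and 0.60, and all 7 lay between them. Mlh3 reached 1935 to 2234 normalised counts across the first 6 libraries, against 1055 to 2115 across the 9 of the second set. The related gene Ccnb1ip1, another crossover regulator, was listed at 259 to 389780 normalised counts among the 3 Control libraries alone, a split that none of these 7 genes showed.

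Other genes that act with these in forming or resolving joint molecules gave the same count of 0. Of a list of 17, 16 were matched (Shoc1 under an older symbol, Spo16 not), and 0 of 16 passed the threshold in any comparison (limma, 0.0% of all genes). With library quality weights, only the 2 listed genes with the smallest p in the unweighted fit of each comparison are described. Of these, limma called Eme1 in AA at -0.47 (adjusted p = 0.0235) and Cdk2 in TSA at 0.60 (adjusted p = 0.0370). That fit called 37.1% of all genes in AA and 23.7% in TSA, and its calls for the other listed genes are not given here. The matched genes lay higher than Control in 6 of 16 in MTX (median -0.06), 7 of 16 in HMS-I1 (median -0.09), 5 of 16 in AA (median -0.13) and 9 of 16 in TSA (median 0.05). The 2 with the smallest p in each comparison are given here, and none passed without those weights. In MTX these were Slx4, a nuclease scaffold, at -0.39 (SE 0.35), and Ccnb1ip1 at -3.64 (SE 4.32). With the library set as a term both were at -0.16 (SE 0.18 for Slx4 and 0.47 for Ccnb1ip1), and leaving out 1 library gave -0.77 to -0.17 for Slx4 and -7.09 to -1.82 for Ccnb1ip1, both ends set by Control replicates 3 and 1. Top3a, a topoisomerase that dissolves joint molecules with BLM, had 952 to 1187 normalised counts in HMS-I1 and 965 to 1311 in TSA, against 804 to 925 in Control, differences of 0.30 (SE 0.21) and 0.34 (SE 0.21). Mcmdc2, which promotes strand invasion and crossing over, had 219 to 261 in HMS-I1 and 227 to 252 in AA, against 275 to 293 in Control, differences of -0.22 (SE 0.20) and -0.25 (SE 0.20). In TSA it was not among the 2 with the smallest p, but its 230 to 240 also lay below the same Control libraries (-0.29, SE 0.20). Eme1, the partner of the nuclease MUS81, had 115 to 129 in AA, against 136 to 173 in Control (-0.41, SE 0.28). Cdk2, a kinase found at crossover sites, had 2022 to 3036 in TSA, against 1781 to 1915 in Control (0.37, SE 0.23). For Top3a, Mcmdc2, Eme1 and Cdk2 the 3 treated libraries did not overlap Control in the comparisons named, as was also the case for 1.35% of all genes in each direction in HMS-I1, 2.81% (higher) and 2.23% (lower) in AA and 2.36% (higher) and 2.18% (lower) in TSA.

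The genes most like each member were named by the mean absolute difference of log2 values, each gene centred on its mean over the 15 libraries, among 14804 genes with a mean of at least 50. The closest was Tvp23b for Cntd1 (0.05), Trim23 for Hfm1 (0.08), Zfp24 for Mlh3 (0.08), Sypl for Msh4 (0.08), Zfp449 for Tex11 (0.08), Gatad1 for Rnf212 (0.11) and Mroh8 for Msh5 (0.16). Next came Vamp4 and Cbx5 for Cntd1, Ppp4r3a and Ptpn2 for Hfm1, Sf3b1 and Golga3 for Mlh3, 1700001F09Rik and Fam227b for Msh4, Caap1 and Ints8 for Tex11, Mok and Tmem56 for Rnf212, and Tada1 and Gpr107 for Msh5. With each gene centred within each library set, Tvp23b, Zfp24, Sypl and Zfp449 were again the closest to Cntd1, Mlh3, Msh4 and Tex11, while Tmem30a came first for Hfm1 (0.06), Rpl30 for Rnf212 (0.10) and Smtnl2 for Msh5 (0.14). None of the 7 was among the 3 nearest genes of another.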

How the data were processed

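The authors deposited 1 table of normalised counts (a signal per gene and library, not whole reads). DESeq2 1.34.0, Salmon 0.12.0, FastQC 0.11.9 and build GRCm39 are named, without roles, per the submitters' processing notes. Reads could not be recovered: 6.21% to 10.1% of values below 50 lay within 0.02 of a whole multiple of a library's most frequent value. Identifiers were matched to GENCODE symbols (35825 of 36118).

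Values were analysed as log2(normalised count + 1). Genes with a mean of at least 10 (17896) were fitted with limma 3.58.1 in R 4.3.3 (5 group means, variance trend, 10 residual degrees of freedom), with two-sided p-values, Benjamini-Hochberg adjustment over all genes and a threshold of 0.05. Fold changes on this scale understate those of low genes. The fit was tested on simulated data. Library sets were drawn at a mitochondrial share of 2%. Named genes are the 7 members, the 2 genes of a list of 17 with the smallest p, and the 3 nearest genes. Members and lists were chosen with earlier results of these data known. The alternatives were another pseudocount, no filter, rescaling, library set, replicate block, library weights, GC correction, 2 groups alone, and each library left out.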

Additional observations from a re-analysis of the deposited data

How the results depend on the processing

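The 28 member differences kept their sign with a pseudocount of 10, without the filter, after rescaling without histone and mitochondrial genes, with a replicate block and with only the 2 groups compared, and 0 were called in these. The block changed no call, with counts of 0 genes throughout. Of 12 same-numbered pairs, 4 had negative correlations of their deviations (range -0.58 to 0.67), and in 4 of 12 the treated library correlated best with the Control library of its own number. The negative pairs were all of replicate 2, where Control is in the first library set and each treated library in the second. Because the correlations follow the library sets, they cannot decide whether the replicate numbers pair the libraries.

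With library quality weights limma called 6645 genes in AA (37.1%), 4234 in TSA (23.7%) and 5640 over the 5 groups (31.5%). It called 2 of the 7 crossover genes in AA, Mlh3 at -0.52 (adjusted p = 0.0255) and Tex11 at 0.68 (adjusted p = 0.0271). Of the 2 listed genes with the smallest p in each comparison, Eme1 in AA and Cdk2 in TSA were also called. The weight of AA replicate 2 was then 38.8, against 0.230 to 2.92 for the other 14, and the weight estimation stopped before it converged. In the other settings the AA adjusted p was 0.835 to 1 for Mlh3 and 0.806 to 1 for Tex11. Weights turned the sign of Msh5 (-0.10), Tex11 (0.15) and Cntd1 (0.097) in HMS-I1, Msh4 (0.066) in AA, and Cntd1 (0.050) in TSA.

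The library set as a term turned Mlh3 (0.052) in MTX, Mlh3 (0.032) and Msh5 (0.093) in AA, and Mlh3 (0.14) and Tex11 (-0.036) in TSA. With the set and a replicate block, the sign turned for Tex11 (-0.054), Hfm1 (-0.18) and Cntd1 (-0.0084) in MTX, Rnf212 (-0.098) in HMS-I1, Msh5 (0.14) and Hfm1 (-0.23) in AA, and Mlh3 (0.020), Rnf212 (-0.064) and Tex11 (-0.16) in TSA. GC correction, with or without a replicate block, turned Msh5 (-0.023), Tex11 (0.047), Hfm1 (0.066) and Mcmdc2 (0.021) in HMS-I1, and Mlh3 (0.043), Hfm1 (0.39) and Cntd1 (0.0044) in TSA. GC correction with the set turned Tex11 (-0.021), Hfm1 (-0.0045) and Cntd1 (-0.029) in MTX, Rnf212 (-0.0015) in HMS-I1, Mlh3 (0.037) and Msh5 (0.086) in AA, and Mlh3 (0.20), Rnf212 (-0.012) and Hfm1 (0.25) in TSA. The cause was not tested.

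Leaving out 1 library turned the sign in 38 of 168 member values and called 0 of the 7 genes. It did so in MTX for Mlh3 (-0.24 to 0.18), Msh5 (-0.049 to 0.44), Tex11 (-0.057 to 0.50), Hfm1 (-0.30 to 0.45) and Cntd1 (-0.11 to 0.24), in HMS-I1 for Mlh3 (-0.47 to 0.024), Msh4 (-0.28 to 0.016), Msh5 (-0.11 to 0.26), Rnf212 (-0.10 to 0.37), Tex11 (-0.51 to 0.070), Hfm1 (-0.58 to 0.087) and Cntd1 (-0.21 to 0.082), in AA for Mlh3 (-0.26 to 0.075), Msh5 (-0.22 to 0.067), Rnf212 (-0.43 to 0.040), Hfm1 (-0.071 to 0.22) and Cntd1 (-0.25 to 0.044), and in TSA for Mlh3 (-0.14 to 0.18), Msh5 (-0.049 to 0.66), Rnf212 (-0.064 to 0.40), Tex11 (-0.25 to 0.39), Hfm1 (-0.43 to 0.14) and Cntd1 (-0.18 to 0.11). Where the sign held, the values were 0.12 to 0.37 for Msh4 and 0.079 to 0.54 for Rnf212 in MTX, -0.24 to -0.022 for Msh4 and 0.092 to 0.60 for Tex11 in AA, and -0.55 to -0.28 for Msh4 in TSA. The value of Tex11 in AA was lowest without Control replicate 1 and highest without AA replicate 1.

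Fits of only the 2 groups compared called 1 gene in MTX (Gm21704), 2 in AA (Gm28897 and Gm28827) and 1 in TSA (Gm20908). Leaving out 1 library gave 0 to 1 genes in MTX, HMS-I1 and AA, 0 to 992 in TSA (992 without TSA replicate 1) and 0 to 246 over the 5 groups (246 without TSA replicate 1). Without that library TSA lies wholly in the second library set and Control mostly in the first. The single genes were Rdh16f1 without Control replicate 1 in every comparison, and Gm21704 over the 5 groups and in MTX without HMS-I1 replicate 3. These genes were named after their values were seen. The unknown depth sets an unknown floor under each value.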
